A study of Mus musculus with 2 samples.

Results

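Interferon-high fibroblasts are the 80 fibroblasts, among 1145 fibroblasts and 1426 sorted heart cells, with the highest combined level of 6 interferon-stimulated genes. Fibroblasts were cells whose mean value of the matrix genes Dcn, Col1a2, Lum and Col3a1 was at least 1.5 on the natural log scale of the deposited table and above that of the macrophage genes Lyz2, C1qa, C1qb and Fcer1g. The values of Ifit1, Ifit3, Isg15, Irf7, Oasl2 and Rtp4 were each put on a z-score scale over all fibroblasts, and the 80 cells with the highest mean z-score were taken. The members were chosen by the measured values of these 6 genes, so their levels are given as a description with no test, and the 6 genes were left out of every test.

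The cells came from hearts of C57BL/6 mice, 20 to 22 months old, that carried the p16-FDR allele, and were sorted by flow cytometry for its red fluorescence. In p16-FDR mice an FLP recombinase and a diphtheria toxin receptor fused to the mCherry fluorophore report on p16, the cell cycle inhibitor made from Cdkn2a. Both groups compared here, interferon-high fibroblasts and the other fibroblasts, are mCherry-positive cells of these old mice, as are the macrophages. No young, unsorted or mCherry-negative cells were used here. RNA was counted as unique molecular identifiers (UMIs) by 3' droplet sequencing in 2 libraries, Heart1 and Heart2, and the labels do not say whether each came from a separate animal.

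Type I interferons signal through the receptor chains Ifnar1 and Ifnar2 and the kinases Jak1 and Tyk2 to a transcription factor that includes Stat2 and Irf9 and binds interferon-stimulated response elements in the promoters of its targets. The targets encode RNA and DNA sensors, proteins that block virus entry, translation and budding, and enzymes that attach the ubiquitin-like protein Isg15 to other proteins. Interferon gamma uses its own receptor and adds GTPases and antigen presentation genes, so many targets respond to both kinds of interferon. In senescent cells interferon-stimulated genes are known to be induced through DNA in the cytosol.

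Promoters of some of the chosen genes and of some genes called higher later in the text show this element. Every promoter printed here holds it. The letters GAAA, any 2 bases, and GAAA again were searched on both strands from 250 bases before to 50 bases after the transcription start, in RefSeq promoters of build GRCm38.p6. Ifit1 and Ifit3 are 2 of the 6 genes of the rule, Ifit3b has the largest difference of the genes called higher outside the rule, and all 3 lie in one cluster on chromosome 19. Isg15 is also a gene of the rule, and Stat2 and Bst2 stand for signalling and for virus restriction. The 250 bases before the start are printed 5′ to 3′ along each gene's strand, with the matching letters in capitals (on the other strand the motif reads TTTC, any 2 bases, TTTC, and overlapping matches run together).
Ifit1, chr19:34640639-34640888, plus strand: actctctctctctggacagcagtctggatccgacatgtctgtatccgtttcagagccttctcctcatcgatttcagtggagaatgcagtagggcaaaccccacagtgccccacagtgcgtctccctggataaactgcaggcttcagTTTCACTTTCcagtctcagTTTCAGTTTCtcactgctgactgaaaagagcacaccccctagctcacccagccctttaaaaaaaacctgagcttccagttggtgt
Ifit3, chr19:34583279-34583528, plus strand: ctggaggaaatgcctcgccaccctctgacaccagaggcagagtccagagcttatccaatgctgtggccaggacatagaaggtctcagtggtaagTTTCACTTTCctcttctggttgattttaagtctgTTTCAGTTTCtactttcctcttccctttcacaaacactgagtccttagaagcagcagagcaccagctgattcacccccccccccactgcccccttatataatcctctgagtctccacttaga
Ifit3b, chr19:34607707-34607956, plus strand: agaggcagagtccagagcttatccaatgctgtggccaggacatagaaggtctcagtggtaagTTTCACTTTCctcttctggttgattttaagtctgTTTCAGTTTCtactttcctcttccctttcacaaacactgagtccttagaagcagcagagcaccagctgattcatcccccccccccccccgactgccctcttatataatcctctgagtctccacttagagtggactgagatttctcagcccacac
Isg15, chr4:156200819-156201068, minus strand: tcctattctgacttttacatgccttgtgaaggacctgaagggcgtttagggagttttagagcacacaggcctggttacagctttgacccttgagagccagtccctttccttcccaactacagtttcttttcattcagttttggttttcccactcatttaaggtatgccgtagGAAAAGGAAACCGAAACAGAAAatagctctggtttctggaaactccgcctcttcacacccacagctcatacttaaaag
Stat2, chr10:128270248-128270497, plus strand: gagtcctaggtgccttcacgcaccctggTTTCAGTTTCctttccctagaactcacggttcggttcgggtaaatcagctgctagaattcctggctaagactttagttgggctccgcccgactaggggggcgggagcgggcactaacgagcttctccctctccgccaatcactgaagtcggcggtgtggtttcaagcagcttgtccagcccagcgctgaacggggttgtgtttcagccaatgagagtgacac
Bst2, chr8:71537473-71537722, minus strand: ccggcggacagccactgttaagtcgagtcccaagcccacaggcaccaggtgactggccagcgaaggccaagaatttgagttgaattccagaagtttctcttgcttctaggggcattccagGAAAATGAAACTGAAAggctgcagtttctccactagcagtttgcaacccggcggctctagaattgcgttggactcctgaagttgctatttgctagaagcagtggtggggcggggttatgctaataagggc
In Ifit1 the first match began 104 bases before the start, in Isg15 it began 78 bases before it, and in Stat2 it lay 222 bases before it. The Ifit3 and Ifit3b stretches carry the same pair of matches in nearly the same surroundings, and reads of these near-identical genes can be split or shared in counting, so their separate levels are uncertain. Of the 6 genes of the rule, 5 had a promoter in the table and 3 of those held the letters, while Irf7 and Oasl2 did not. Among genes called higher, Phf11d held no match, and the only match of Eif2ak2 began 18 bases after the start.

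The motif was frequent among the genes that went with the 6 chosen ones. It stood in 23 of the 55 genes called higher that had a promoter (41.8%), in 1 of the 44 called lower (2.27%), in 249 of the 6784 fitted genes with a promoter (3.67%) and in 1079 of all 27025 genes of the table (3.99%). It was found in 10 of 11 interferon-inducible GTPase genes, in 20 of 33 antiviral effector genes, in 6 of 25 genes of the list of other interferon-stimulated genes and in 0 of 3 genes of Isg15 conjugation. It stood in 5 of 13 nucleic acid sensor genes, 4 of 12 MHC class I genes and 1 of 5 immunoproteasome genes. Of 11 receptor and JAK-STAT genes only 1, Stat2, held it. A match is a string of letters in a window and not a shown binding site.

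The 80 cells made up a like share of each library. They were 14 of the 206 fibroblasts of Heart1 (6.80%, 95% exact binomial interval 3.77 to 11.1%) and 66 of the 939 of Heart2 (7.03%, 5.48 to 8.86%), which left 192 and 873 other fibroblasts. The cutoff fell inside a continuous distribution: the last cell taken had a mean z-score of 0.7272 and the first left out had 0.7268, against a highest value of 7.19 and a fibroblast median of -0.17. Most of the 80 used several of the 6 genes: 18 had a UMI of all 6, 22 of 5, 20 of 4, 14 of 3 and 6 of 2. Of the other 1065 cells, 546 had none, 331 had 1, 147 had 2, 37 had 3, 3 had 4 and 1 had 5.

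The levels of the 6 genes, which the rule used, were as follows in counts per 1000000 UMIs (CPM) of the summed cells of each library, Heart1 before Heart2. Ifit1, which binds viral RNA ends and blocks their translation, stood at 148 and 393 CPM in interferon-high cells, against 7.46 and 6.37 CPM in other fibroblasts. Isg15 stood at 258 and 378 CPM in interferon-high cells, against 29.8 and 10.7 CPM in the others. Ifit3, a partner of Ifit1, stood at 269 and 511 CPM against 19.2 and 15.4 CPM. The factor Irf7, which amplifies the response, stood at 104 and 135 CPM against 11.4 and 13.1 CPM, and the 2 remaining genes were Oasl2 (159 and 158 CPM against 15.3 and 19.6 CPM) and Rtp4 (165 and 237 CPM against 12.96 and 15.9 CPM). No interferon-high value overlapped a value of the other fibroblasts, as the choice of cells fixes.

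The 80 cells were close to the rest in depth and mitochondrial share. Their median was 12239.5 UMIs in Heart1 and 8956 in Heart2, against 11835 and 8714 UMIs in other fibroblasts, with mitochondrial shares of 3.27% and 5.08% against 3.38% and 5.18%. In all, their sums held 182120 UMIs in Heart1 and 608098 in Heart2, against 2546970 and 7845572 for the other fibroblasts, so that 1 UMI in the Heart1 sum of interferon-high cells is 5.49 CPM. The libraries shared 0 cell barcodes, and 0 of the 80 cells were among the 13 predicted doublets. Genes of fibroblast identity were expressed: Pdgfra had 362 and 426 CPM against 248 and 506 CPM, Tcf21 286 and 469 CPM against 259.9 and 462 CPM, and neither differed past the test (adjusted p = 0.955 and 0.975, limma).

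Genes outside the rule were compared between the 80 cells and the other fibroblasts with limma on log2(CPM + 5) of the 4 sums, with the library as a block and Benjamini-Hochberg adjustment over 8591 genes; called means an adjusted p under 0.05. Of these genes 68 were called higher (0.792%) and 61 lower (0.710%), and 41 (0.477%) and 30 (0.349%) were at least 2-fold higher or lower in both libraries. Both rules were met by 36 genes (0.419%) on the higher side and 18 (0.21%) on the lower side. Of the 68, 45 belonged to the 11 interferon lists, which put 104 genes into the test. The cells were picked for interferon genes, so these tests say which genes travel with the 6 and are no independent evidence that the cells respond to interferon. The p-values rest mostly on a spread pooled over genes (86.2 prior degrees of freedom, against 1 left by the samples), and the calls depend on it: 27 of the 68 and 7 of the 61 were called by at least 13 of 18 alternative settings. The fit with no library term called 0 genes (101 higher and 86 lower at an unadjusted p under 0.05), and a fit that shared its spread with macrophages called 2 higher and 1 lower.

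**Figure D1:**
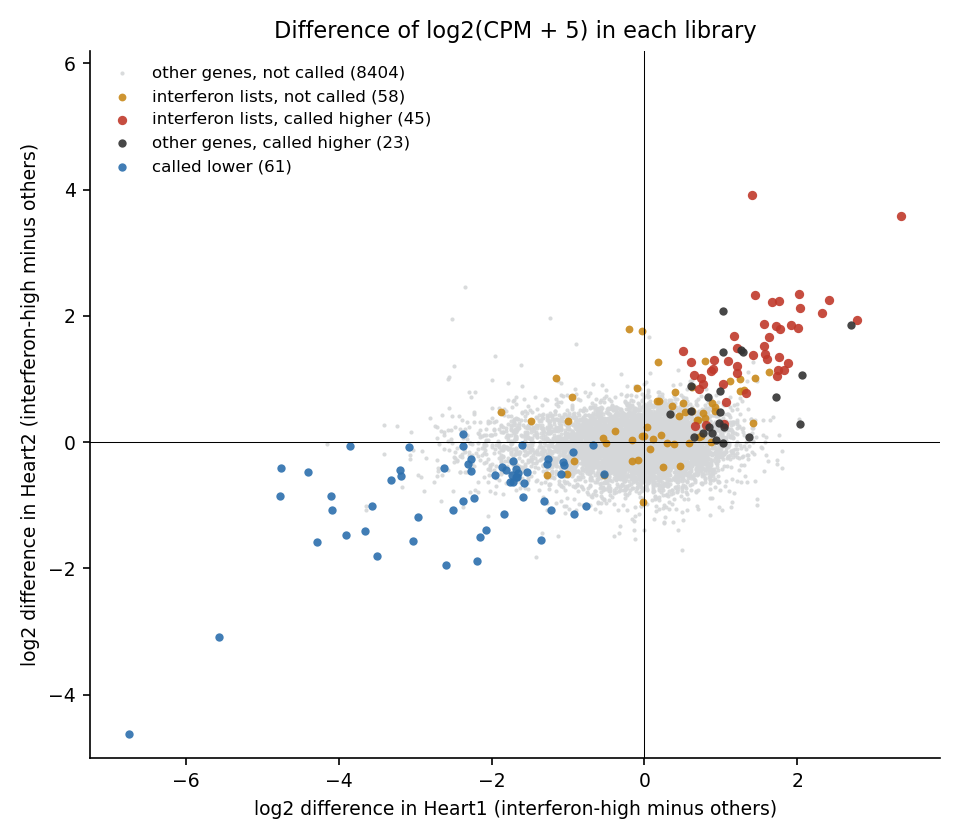
Log2 difference of each fitted gene between interferon-high and other fibroblasts in Heart1 (horizontal) and Heart2 (vertical), both on the log2(CPM + 5) scale. The 45 interferon list genes called higher lie on the positive side in both libraries, while most of the 61 genes called lower lie further from 0 in Heart1 than in Heart2.

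Of 17 fitted antiviral effector genes 10 were called higher, 0 lower and 7 neither, with a median log2 difference of 1.37 over the fitted genes against -0.04 over all genes fitted. Ifit3b, a copy of Ifit3, stood at 98.8 and 113 CPM in interferon-high cells and at 5.10 and 4.84 CPM in the others, a log2 difference of 3.48 ± 0.33 (SE, adjusted p = 5.7e-14, limma). Eif2ak2, the kinase PKR that halts translation on double-stranded RNA, stood at 137 and 80.6 CPM against 15.7 and 17.3 CPM (2.36 ± 0.29, adjusted p = 1.03e-09, limma). It had a UMI in 43.8% of the 80 cells and in 14.1% of the others.

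For both genes the lower interferon-high value lay above the higher value of the others. Rnf213, a large ubiquitin ligase, stood at 76.9 and 112 CPM against 11.4 and 23.2 CPM, and Xaf1, a pro-apoptotic interferon target, at 109.8 and 151 CPM against 23.6 and 39.8 CPM. Trim30a stood at 76.9 and 132 CPM against 25.1 and 22.2 CPM, and the nuclear body gene Sp100 at 121 and 166 CPM against 36.5 and 63.3 CPM. Bst2, which tethers budding virus to the cell, stood at 626 and 531 CPM against 166 and 220.4 CPM (1.57 ± 0.16, adjusted p = 7.29e-13, limma). A UMI of Bst2 was found in 95% of the 80 cells and in 74.7% of the others, and in 66.3% against 41.3% with each cell thinned to 3000 UMIs. As a measure of background in these fibroblasts, any UMI of 10 macrophage marker genes beyond the rule was found in 7.14% and 9.09% of interferon-high cells and in 11.5% and 15.8% of the others.

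Ifitm3, which blocks virus fusion, stood at 3091 and 3531 CPM against 1889 and 1958 CPM (0.78 ± 0.09, adjusted p = 7.39e-11, limma) and had a UMI in 100% and 99.7% of cells. Ifit2 and Slfn5 were the remaining called members, with differences of 1.44 and 0.98. The related Ifitm2 was not called, at 0.17 ± 0.11 (adjusted p = 0.834, limma). Of the 35 listed genes with any value, 18 were under the filter of 10 CPM over all fibroblasts and were not tested.

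**Figure D2:**
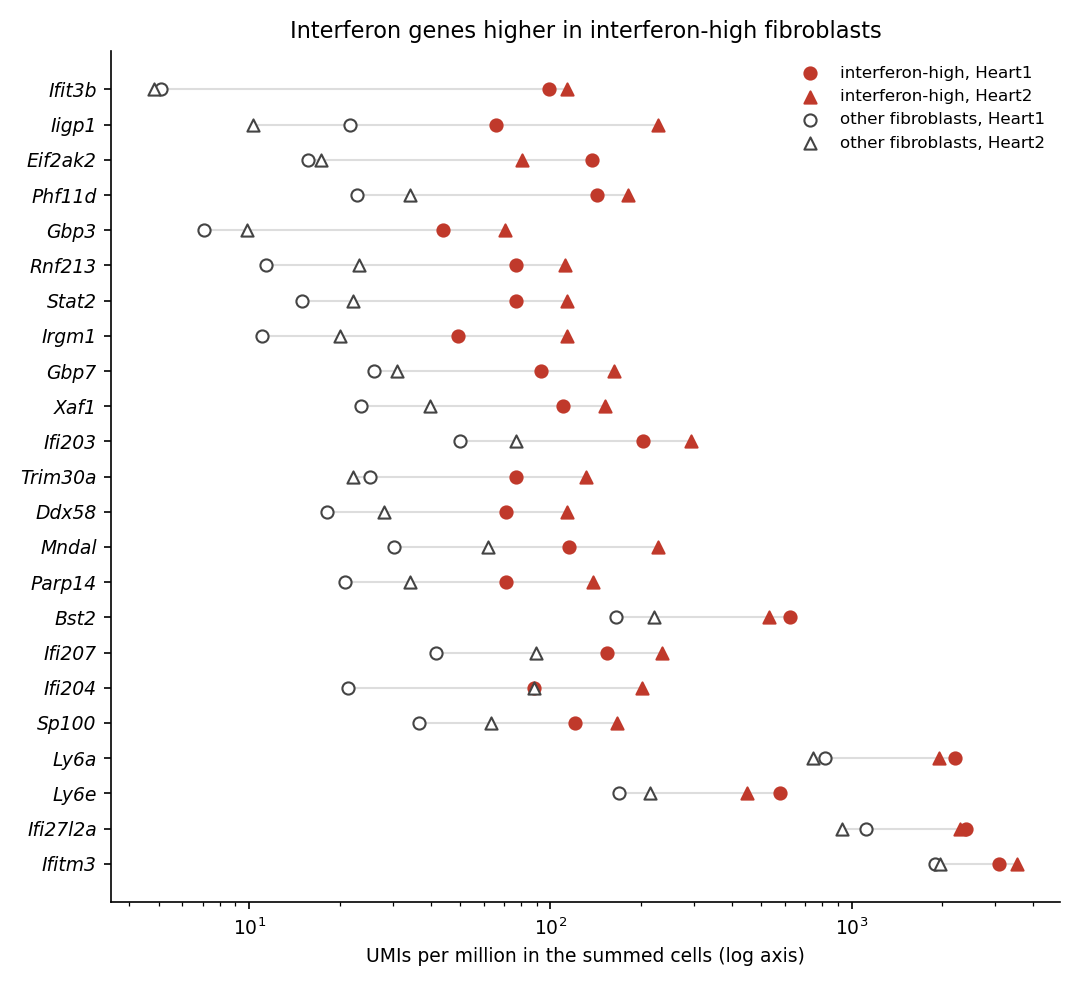
Level of the 23 interferon list genes that were called higher and that at least 13 of 18 alternative settings also called, in CPM on a log axis, with interferon-high fibroblasts filled and other fibroblasts open and 1 symbol per library. In each library the filled symbol lies to the right of the open one, by the widest gap for Ifit3b.

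Some interferon genes were too low for the filter and are given without a test. Usp18, the protease that takes Isg15 off proteins and dampens the receptor, had 49.4 and 51.0 CPM in interferon-high cells and 3.14 and 2.42 CPM in the others. Its UMIs were spread over 26 of the 80 cells. Zbp1, a sensor of Z-form nucleic acid, had 49.4 and 37.8 CPM against 4.32 and 3.57 CPM, and Cmpk2 had 32.9 and 49.3 CPM against 3.93 and 8.41 CPM. By contrast Rsad2, which makes an antiviral nucleotide, had 30 UMIs in 11 of the 80 cells with 12 in 1 cell, and Cxcl10, a chemokine for T cells, had 52 UMIs in 3 cells with 35 in 1 cell and none in Heart1. Mx1 had 4 UMIs in 4 cells. The antiviral, other, conjugation and GTPase lists have 90 genes with any value. Of these, Oas1g, Oas3, Ifi44 and Epsti1 had 0 UMIs in the 80 cells. By library, 14 of the 90 were at 0 in interferon-high cells of Heart1 and 5 in Heart2. In the others, whose sums are deeper, 5 and 5 were at 0. Of the interferon genes themselves, Ifng had 0 UMIs in the 80 cells, and type I interferon genes were not analysed here.

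The list of other interferon-stimulated genes had 11 of 28 fitted genes called higher, 0 lower and 17 neither, with a median difference of 0.81. Phf11d stood at 143 and 181 CPM against 22.8 and 34.2 CPM (2.33 ± 0.25, adjusted p = 5.95e-12, limma), and Parp14, an ADP-ribosylating enzyme, at 71.4 and 138 CPM against 20.8 and 34.3 CPM. Dtx3l, the partner of Parp9, stood at 32.9 and 37.8 CPM against 7.85 and 9.94 CPM and was called under 1 of 18 alternatives. The 3 abundant genes Ifi27l2a, Ly6a and Ly6e were each more than 2-fold higher in both libraries: Ifi27l2a (2394 and 2283 CPM against 1118 and 929 CPM), Ly6a, known as Sca-1 (2196 and 1947 CPM against 815 and 743 CPM), and Ly6e (577 and 449 CPM against 169 and 214 CPM). Phf11, Ly6 and Ifi27 genes have close relatives, so a level of 1 member is uncertain where reads are shared. Of these, Ifi27l2a was called under 17 of 18 alternatives.

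Interferon-inducible GTPases, which attack the membranes around intracellular pathogens, had 5 of 6 fitted genes called higher, 0 lower, and the largest list median (1.98). Iigp1 stood at 65.9 and 227 CPM in interferon-high cells against 21.6 and 10.3 CPM in the others (2.67 ± 0.31, adjusted p = 1.83e-10, limma). Its difference was 1.41 in Heart1 and 3.92 in Heart2, and 50% of the 80 cells against 9.30% of the others had a UMI. Irgm1 stood at 49.4 and 113 CPM against 10.99 and 20.0 CPM, Gbp7 at 93.3 and 163 CPM against 25.9 and 30.8 CPM, and Gbp3 at 43.9 and 70.7 CPM against 7.07 and 9.81 CPM. Guanylate-binding proteins share long stretches of sequence, so single Gbp values are uncertain. Isg15 conjugation had 2 of 3 genes called higher: the ligase Herc6 (49.4 and 59.2 CPM against 12.6 and 15.2 CPM) and the conjugating enzyme Ube2l6 (54.9 and 69.1 CPM against 20.8 and 29.7 CPM), while the activating enzyme Uba7 differed by 1.03 ± 0.38 (adjusted p = 0.257, limma).

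Sensors of nucleic acid had 6 of 12 fitted genes called higher, 0 lower and 6 neither. Ddx58, which encodes RIG-I, stood at 71.4 and 113 CPM against 18.1 and 27.9 CPM (1.79 ± 0.28, adjusted p = 2.14e-06, limma), and Ifih1, which encodes MDA5, at 60.4 and 77.3 CPM against 16.9 and 26.4 CPM. The 4 genes Ifi203, Mndal, Ifi207 and Ifi204 of the Ifi200 cluster, relatives that bind DNA, were also called, with Ifi203 at 203 and 293 CPM against 50.3 and 77.1 CPM and Mndal at 115 and 227 CPM against 30.2 and 62.1 CPM. These 4 are close copies and their separate values are uncertain. The adaptors downstream were not called: Mavs had 0 and 8.22 CPM against 7.07 and 13.9 CPM, and Tmem173, which encodes STING, 10.98 and 11.5 CPM against 9.82 and 10.96 CPM.

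Of 11 fitted receptor and JAK-STAT genes 2 were called higher and 0 lower. Stat2 stood at 76.9 and 113 CPM in interferon-high cells against 14.9 and 22.2 CPM in the others (2.08 ± 0.29, adjusted p = 4.88e-08, limma), and Irf9 at 60.4 and 83.9 CPM against 23.2 and 26.5 CPM (1.36 ± 0.29, adjusted p = 0.0011, limma). Both encode parts of the factor that binds the response element.

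The receptor and kinase genes named next were not called. Ifnar1 had 38.4 and 31.2 CPM against 31.8 and 42.4 CPM, and Ifnar2 had 137 and 135 CPM against 130.0 and 145 CPM. The interferon gamma receptor genes Ifngr1 (445 and 428 CPM against 294 and 432 CPM) and Ifngr2 (22.0 and 36.2 CPM against 45.9 and 45.6 CPM) were not called either. Jak1, Jak2, Tyk2 and Stat3 had differences of 0.04 ± 0.18, 0.41 ± 0.33, -0.23 ± 0.48 and -0.10 ± 0.23 (SE). Of the negative regulators, Socs3 was called lower (27.5 and 9.87 CPM against 111 and 27.8 CPM, adjusted p = 0.00132, limma), and Socs1 had 5.49 and 60.8 CPM against 18.5 and 27.7 CPM (adjusted p = 0.994, limma).

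Antigen presentation through MHC class I moved by small amounts. Of 13 fitted genes 5 were called higher and 0 lower, with a median difference of 0.62, and of 5 immunoproteasome genes 4 were called higher. The peptide pump Tap1 stood at 32.9 and 70.7 CPM against 11.8 and 18.5 CPM (1.43 ± 0.34, adjusted p = 0.00496, limma). The heavy chain gene H2-K1 stood at 939 and 947 CPM against 453 and 771 CPM, H2-Q4 at 65.9 and 87.2 CPM against 23.2 and 48.9 CPM, and B2m at 807 and 891 CPM against 508 and 744 CPM. The difference of H2-K1 was 1.04 in Heart1 and 0.29 in Heart2. The proteasome subunits Psmb8 (148 and 201 CPM against 93.1 and 93.3 CPM), Psmb9 and Psmb10 and the activator Psme1 (242 and 202 CPM against 113 and 128 CPM) stood 0.85 to 1.03 higher on the log2 scale. H2 genes are near-identical in part, and Tap1, H2-K1 and Psmb8 were each called under 5 of 18 alternatives. H2-Q4 was called under 2 of them and B2m under 1. Thinning to 3000 UMIs turned the difference of Psmb9 to -0.75.

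**Figure D3:**
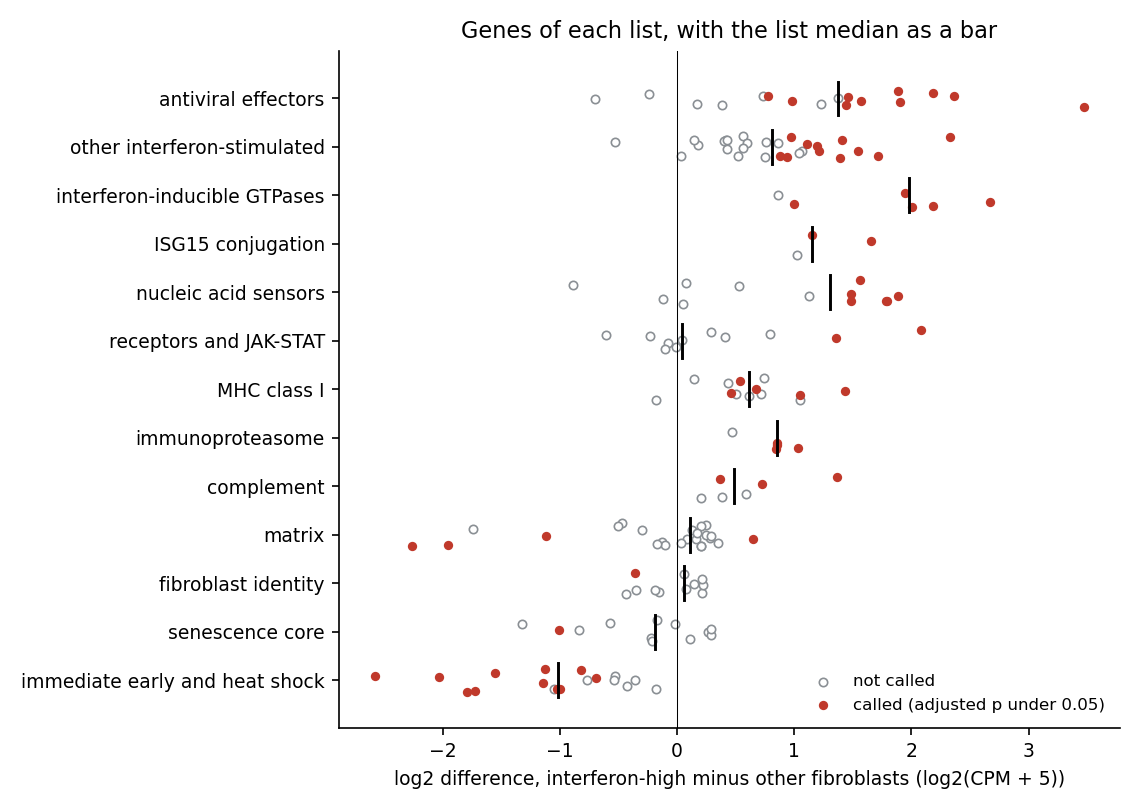
Log2 difference (interferon-high minus other fibroblasts, log2(CPM + 5)) of each fitted gene of 13 lists, with genes called at an adjusted p under 0.05 filled and the list median as a black bar. The GTPase, antiviral and sensor lists have medians of 1.98, 1.37 and 1.30, matrix and fibroblast identity lie near 0, and the immediate early and heat shock list has a median of -1.01.

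Between single cells the interferon program was graded. Of 93 other interferon-stimulated genes on 4 lists (antiviral, other, conjugation and GTPases) 90 were in the table, and the 80 cells had a median of 30 of them detected against 19 in the other fibroblasts. With every cell thinned to 3000 UMIs the medians were 16 and 10. Along the ranking by the 6 genes, the thinned median was 25 in ranks 1 to 20, 16.5 in ranks 21 to 40, 15 in ranks 41 to 60 and 14.5 in ranks 61 to 80, then 12.5 in ranks 81 to 160, 11 in ranks 161 to 320 and 10 in ranks 321 to 1145. No step stood at rank 80. Over cells, which share 2 libraries and are not replicates, Spearman's rho between mean z-score and thinned gene number was 0.60 in the 80 (0.62 in Heart1 and 0.61 in Heart2) and 0.15 in the others (0.036 in Heart1 and 0.20 in Heart2).

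A few cells led the group. The cell with the highest mean z-score had 53 of the 90 genes detected in 6312 UMIs, and all of the first 5 cells by rank came from Heart2. The 4 lists summed to 14381 and 16415 CPM in interferon-high cells against 7510 and 8224 CPM in the others. Without the 2 cells of highest mean z-score 30 genes in place of 68 were called higher, and all 30 were among the 68. The 40 cells of highest rank included only 4 of Heart1.

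**Figure D4:**
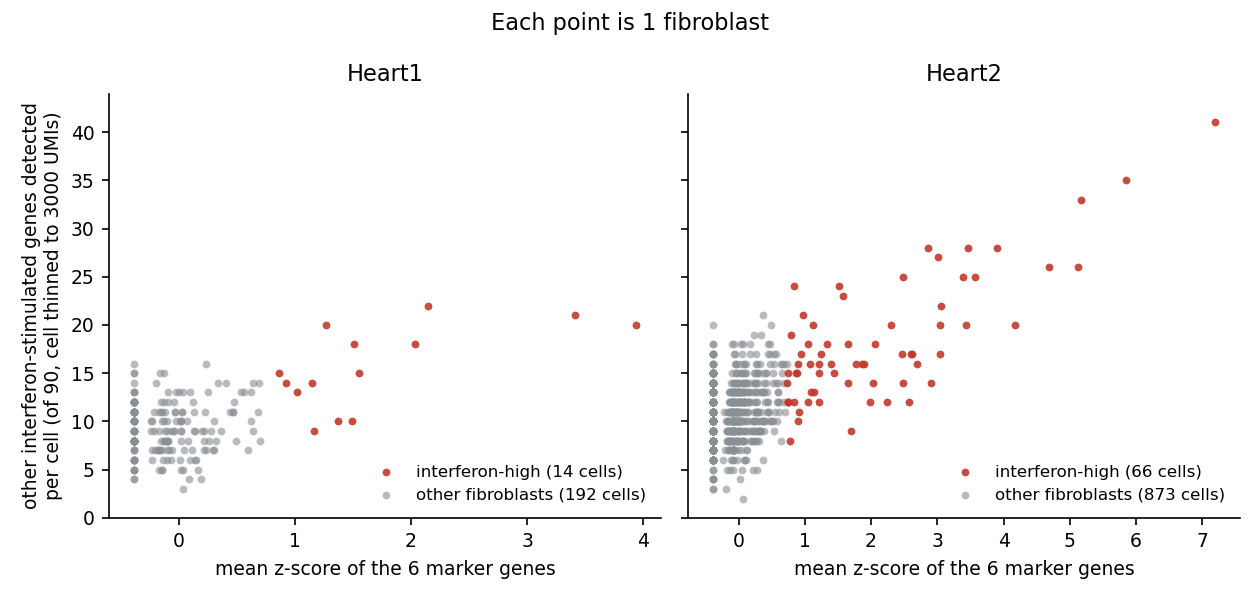
Number of other interferon-stimulated genes detected per cell, after thinning to 3000 UMIs, against the mean z-score of the 6 genes that chose the cells, for Heart1 and Heart2, with each of the 80 interferon-high cells and 1065 other fibroblasts as a point. The cloud of other fibroblasts, at a median of 10 genes, runs without a gap into the interferon-high cells, and the 3 cells with more than 30 genes are all in Heart2.

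Outside the interferon lists few genes were called higher and held under most settings. A gene off these lists may still respond to interferon, which was not tested. C4b, a complement component, stood at 588 and 327 CPM against 237 and 118 CPM (1.36 ± 0.16, adjusted p = 7.33e-10, limma) and was called under 16 of 18 alternatives. Wisp2, a secreted Wnt-linked protein, stood at 533 and 253 CPM against 258 and 91.4 CPM, AW112010 at 60.4 and 276 CPM against 27.1 and 61.7 CPM, and the actin-binding gene Tmsb10 at 2163 and 2199 CPM against 1415 and 1568 CPM. Of 6 fitted complement genes 3 were called higher: beside C4b these were C3 (1938 and 1636 CPM against 744 and 1548 CPM) and Serping1 (2098 and 2011 CPM against 1339 and 1898 CPM), both with a difference of 0.08 in Heart2. C3 was called under 6 and Serping1 under 0 of 18 alternatives. Wisp2, AW112010 and Tmsb10, and list members beyond the naming rule such as Usp18, Bst2 and Ly6a, are named here after their values were seen.

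Cx3cr1, the fractalkine receptor, met the rule for the largest differences but rested on a handful of cells. It is also a macrophage gene, at 196 and 216 CPM in macrophages. It had 109.8 and 62.5 CPM against 12.6 and 13.6 CPM (2.28 ± 0.31), with 58 UMIs in 4 of the 80 cells and 31 of them in 1 cell. Its difference was -1.12 with 40 cells and -0.26 without cells that held a UMI of Thbs4 or Wif1. Adamtsl2 stood at 346 and 75.6 CPM against 102 and 43.97 CPM, and Pi16, of adventitial fibroblasts, at 3086 and 1579 CPM against 1512 and 1594 CPM, a difference of 1.03 in Heart1 and -0.014 in Heart2.

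Genes called lower behaved unlike those called higher when counted by cell. For 46 of the 68 genes called higher, the 95% exact binomial interval of the share of cells with a UMI lay above that of the other fibroblasts, and for all 68 the share itself was higher. For the 61 called lower, the interval lay below in 1 gene, Dpp7, the share itself was lower in 47, and the median share was 16.3% of the 80 cells against 21.6% of the others. The genes were called on sums of these same cells, so shares on the called side are partly fixed by the calls. Such shares were not counted over all fitted genes. The intervals pool the cells of both libraries, which are not replicates. In the other fibroblasts the 10 cells with most UMIs of a gene held a median of 32.7% of its UMIs for genes called lower and 8.94% for genes called higher. In the 80 cells the 10 leading cells held a median of 86.4% for genes called lower and 43.7% for genes called higher. Genes called lower were also found in fewer of the other fibroblasts, at a median of 21.6% of cells against 32.2%. The part of this rarity was not tested. Among the 1065, few cells of high level held much of the sums of the genes called lower.

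**Figure D5:**
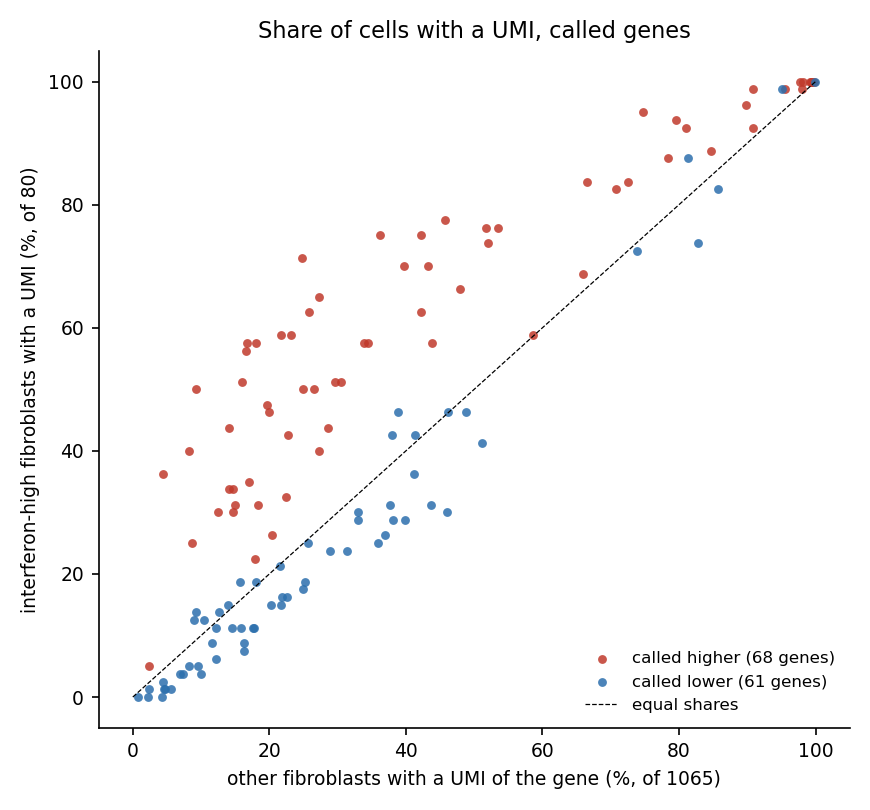
Share of cells with at least 1 UMI of each called gene, in the 80 interferon-high fibroblasts (vertical) and the 1065 other fibroblasts (horizontal), in percent and not thinned. The 68 genes called higher lie above the dashed line of equal shares, and the 61 called lower lie close to it.

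Thbs4, a matricellular gene, shows this. It had 0 UMIs in the 80 cells against 532 and 118 CPM in the others. Set against a floor of 3 UMIs per library, the others stood 32.3-fold higher in Heart1 and 23.98-fold higher in Heart2. That floor counts UMIs as independent, so it gives no lower limit of the difference where few cells hold them. Of the other 1065 cells, 45 held all of the 2282 UMIs of Thbs4 and 10 cells held 86.9% of them. By cell the share was 0 of 14 (interval 0 to 23.2%) against 29 of 192 (15.1%) in Heart1, and 0 of 66 (0 to 5.44%) against 16 of 873 (1.83%) in Heart2. Both pairs of intervals overlap, so a lower share was not detectable with these numbers of cells. Thbs4 had a UMI in 0 of 247 macrophages. Spp1 and Tnmd, in 24 and 8 of the other cells, were also at 0 in the 80.

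Postn, which encodes periostin, stood at 340.4 and 74.0 CPM in interferon-high cells against 2078 and 299 CPM in the others (-2.27 ± 0.16, adjusted p = 1.91e-21, limma). Its share of cells was 57.1% against 60.9% in Heart1 and 7.58% against 13.2% in Heart2, with 2.70% and 1.90% of macrophages. Wif1, an inhibitor of Wnt, had 22.0 and 1.64 CPM against 400.5 and 13.5 CPM, in 2 of 80 against 47 of 1065 cells. By library the share of cells with Wif1 was 7.14% against 19.8% in Heart1 and 1.52% against 1.03% in Heart2. Tagln, a smooth muscle type gene, had 16.5 and 3.29 CPM against 170.0 and 19.5 CPM, in 3 against 78 cells.

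Most of the remaining lower calls came from Heart1. Fn1, fibronectin, had 16.5 and 55.9 CPM against 305 and 58.4 CPM, a difference of -3.85 in Heart1 and -0.06 in Heart2. Timp1 (137 and 109 CPM against 731 and 98.9 CPM), Cthrc1, Fmod, Id4 and the chemokine genes Ccl2 (22.0 and 194 CPM against 223 and 206 CPM) and Cxcl1 likewise differed by less than 1 in Heart2. Comp had differences of -1.68 in Heart1 and -0.56 in Heart2, and Cilp had differences of -0.77 in Heart1 and -1.01 in Heart2. Of the whole matrix list 1 of 24 genes was called higher (Eln), 3 lower (Fn1, Postn, Timp1) and 20 neither, and the collagen gene Col1a1 had 1389 and 999.8 CPM against 1515 and 1101 CPM. Of 11 fibroblast identity genes 10 were not called, and Vim was called lower at -0.36.

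Immediate early and heat shock genes, which cell dissociation is known to induce, were lower as a list. Of 18 fitted genes 11 were called lower, 0 higher and 7 neither, with a median difference of -1.01 (-1.38 in Heart1 and -0.45 in Heart2), and the summed list stood at 5700 and 3570 CPM in interferon-high cells against 12266 and 4622 CPM in the others. Hspa1a, an inducible chaperone, stood at 297 and 44.4 CPM against 1366 and 178 CPM (-2.04 ± 0.17, adjusted p = 1.12e-16, limma), Junb at 258 and 149.6 CPM against 1494 and 320.1 CPM, and Zfp36, which degrades cytokine mRNA, at 10.98 and 21.4 CPM against 267 and 50.6 CPM. Hspa1a had a UMI in 28.8% of the 80 cells and 38.1% of the others, with overlapping intervals. The list result depended on which cells were taken: with 80 cells chosen on thinned counts, 1 of the 18 genes was called lower, the list median was -0.25, and Hspa1a, Junb and Zfp36 differed by -0.03, -0.31 and -0.29 (adjusted p = 0.999, 0.697 and 0.944, limma). The part of dissociation in the lower calls of Socs3, Ccl2, Ccl7, Cxcl1, Nfkbia, Btg2 and Cdkn1a, which are induced by like stimuli, was not tested.

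The sort was for a reporter of p16, and Cdkn2a RNA was not called in either direction. It had 3 UMIs in 2 of 14 cells of Heart1 (14.3%, interval 1.78 to 42.8%) and 0 UMIs in 66 cells of Heart2 (0 to 5.44%), against 70 of 192 (36.5%, 29.6 to 43.7%) and 7 of 873 (0.802%, 0.323 to 1.65%) in the others. Thinned to 3000 UMIs the Heart1 shares were 14.3% and 15.6%. The fitted difference was -1.32 ± 0.54 (adjusted p = 0.386, limma) and that of Cdkn2b, the neighbouring inhibitor gene, -0.84 ± 0.44 (adjusted p = 0.679, limma). Macrophages had a Cdkn2a UMI in 43.2% and 27.1% of cells. Cdkn1a, which encodes p21, was called lower at 71.4 and 123 CPM against 246 and 154 CPM (-1.01 ± 0.22, adjusted p = 0.00123, limma), by -1.72 in Heart1 and -0.31 in Heart2. Its share of cells in Heart2 was 28.8% against 29.2%, and 3 of 18 alternatives called it.

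Of 12 fitted senescence core genes 1, Cdkn1a, was called lower and 0 higher, and of 10 p53 target genes 1, Btg2, was called lower and 0 higher. No ribosomal protein gene of 89 and no mitochondrially encoded gene of 13 was called in either direction. Of 3 fitted proliferation genes 0 were called. Of the fibroblast type lists, Hsd11b1-type and Inmt-type genes had 0 calls in either direction, and the summed Inmt, Osr1 and Rspo1 level was 115 and 298 CPM in interferon-high cells against 82.8 and 159 CPM in the others.

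Markers of immune cells were low in the 80 cells. The 10 macrophage markers beyond the rule summed to 5.49 and 14.8 CPM in interferon-high cells, against 49.1 and 19.9 CPM in other fibroblasts and 12392 and 14381 CPM in macrophages, and 6 of them (Cd68, Mrc1, Fcgr1, Ptprc, Tyrobp and Laptm5) were at 0 in the 80. All 7 T cell markers were at 0. Endothelial markers summed to 214 and 125 CPM against 115 and 111 CPM, with 4 of 8 (Cdh5, Cldn5, Kdr and Tie1) at 0. Mural cell markers summed to 176 and 243 CPM against 239 and 241 CPM, with 1 of 6 (Cspg4) at 0, and 78.6% and 74.2% of interferon-high cells had a UMI of them, against 82.8% and 77.3% of the others (28.6% and 62.1% against 42.7% and 48.6% thinned). Their part in the results was not tested. The class II chain gene Cd74, at 13760 and 17756 CPM in macrophages, had 0 and 1.64 CPM in interferon-high cells against 58.1 and 12.6 CPM in the others and was called lower (adjusted p = 0.0111, limma).

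Set beside the 37 and 210 macrophages of the same libraries, interferon-high fibroblasts had the higher summed level of the 4 lists of interferon-stimulated genes. Of the 54 fitted genes of the 4 lists 28 were called higher than in macrophages and 0 lower in a limma fit of the 3 cell sets, which shares the 80 cells with the comparison above, against 23.6% higher and 8.47% lower of all 8591 genes. At least 2-fold higher in both libraries were 14 of the 54, against 17.3% of all genes higher and 4.76% lower (16.5% and 4.76% by both rules). The filter required 10 CPM over all fibroblasts, so interferon genes low in fibroblasts and high in macrophages were not tested, which favours higher over lower calls. On cells thinned to 3000 UMIs 8 of the 4 lists were called higher, and with a pseudocount of 20 CPM 6 were at least 2-fold higher in both libraries. The 4 lists summed to 14381 and 16415 CPM in interferon-high fibroblasts against 8986 and 9517 CPM in macrophages. Iigp1 had 65.9 and 227 CPM against 5.76 and 23.9 CPM in macrophages, and Ly6a 2196 and 1947 CPM against 239 and 3.83 CPM. Abundant genes such as Ly6a weigh most in these sums, and Ly6a was also higher in the other fibroblasts than in macrophages. Of the 12 sensors 1 was called higher and 3 lower. Ifi203 stood at a near-equal level in macrophages, with 203 and 293 CPM against 202 and 312 CPM. B2m, at 807 and 891 CPM against 1602 and 1519 CPM, was called lower. Macrophages were not chosen for interferon genes, so this sets a selected group beside an unselected one.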

How the data were processed

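Heart cells of old p16-FDR mice were profiled by droplet 3' sequencing (v3 kit). The submitters' processing notes name Cell Ranger 3.0.2 and mm10; cell filtering is not given in the sources used here. Values in the deposited table (15247 genes, 1426 cells) are natural log values, ln of UMIs scaled to 10000 per cell with 1 added, a unit read from the numbers. Undoing the log gave whole UMI counts within 1e-06 in every cell. Cell names carry the prefixes Heart1 and Heart2, which could not be matched to the sample records. The p-values set a gene's mean difference between cell sets against its spread between these libraries, a spread mostly pooled over genes. A gene whose libraries differ widely can still be called, such as Fn1 (-3.85 in Heart1 and -0.06 in Heart2). Variation between the libraries may be technical. Of the columns of cells 0 were left out.

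UMIs were summed per library and cell set. A count model had been planned for whole counts, but the deposited unit is a log value, so log2(CPM + 5) was fitted in limma 3.58.1 under R 4.3.3, with a library block, a mean-variance trend and a filter of 10 CPM over all fibroblasts. Such differences understate changes of low genes. The sums held from 182120 to 7845572 UMIs. Intervals are exact binomial at 95% and cover counting error only. In simulated sums of this comparison (8530 genes) the fit recovered 26 of 50 genes changed 2-fold, 49 of 50 changed 4-fold and 44 of 50 lowered to 0.25-fold, and called 25 unchanged genes. The simulation gave every gene the same fixed spread and changed only genes of middle level. It therefore does not cover genes whose UMIs lie in few cells, such as many of those called lower. Doublets were predicted with scrublet in scanpy 1.11.5 and kept. Macrophages were cells with the mean of the 4 macrophage genes at 1.5 or more and above that of the fibroblast genes.

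Named genes were the 15 higher and 8 lower called genes with the largest difference, the same direction in both libraries and 20 UMIs or more (predicted genes left out), up to 3 called genes of each list, the receptor and JAK-STAT genes, Cdkn2a, Cdkn2b, Cdkn1a and the 6 genes of the rule. The 80 cells, the gene lists and the tests were chosen with earlier results of these data known. Some genes that this rule names are not reported here. Gene positions and promoters are of GRCm38 (GENCODE M21, RefSeq GRCm38.p6). Alternatives changed the pseudocount, filter, scaling, block, weights, depth, the number and choice of cells, and left out libraries or cells.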

Additional observations from a re-analysis of the deposited data

How the results depend on the processing

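The number of calls depended strongly on the settings. In place of 68 genes higher and 61 lower, the counts were 33 lower with a pseudocount of 1 CPM (47 higher), 25 and 10 with no filter on low genes, 20 and 9 with a filter of 30 CPM, 39 and 21 with median ratio scaling, 39 and 8 with voom weights, and 19 and 15 on cells thinned to 3000 UMIs. They were 0 and 0 with no replicate block in limma (101 higher and 86 lower at an unadjusted p under 0.05), a setting that puts the library difference into the spread, and 2 and 1 in a fit of 3 cell sets. Calls were 43 higher with 40 cells, 29 and 12 without mixed cells and predicted doublets, 25 and 6 in a matched range of UMIs, and 36 and 16 without the cell with the most interferon-stimulated UMIs. With settings chosen after seeing the data they were 30 and 12 without the 2 cells of highest mean z-score, and 31 and 14 with 80 cells chosen on thinned cells, which shared 57 of the 80. Of the 28 called genes of the 4 lists, 15 were called with no filter, 10 with a filter of 30 CPM, 0 with no replicate block, 10 on thinned cells, 1 with 3 cell sets, 18 without mixed cells, 16 in the matched range, 17 without the 2 cells and 16 with cells chosen on thinned counts.

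By fold alone, at least 2-fold in both libraries, genes numbered 41 higher and 30 lower. These were 69 lower with a pseudocount of 1 CPM, 26 and 6 with 20 CPM, 62 higher with no filter, 17 and 18 with a filter of 30 CPM, 251 lower on thinned cells, 113 lower with 40 cells, 23 and 12 with 160 cells, 25 higher with cells chosen on thinned counts and 16 lower without cells holding Thbs4 or Wif1. With a single library they ranged from 67 to 240 higher and from 75 to 832 lower. On the 4 lists, 23 such genes became 36 with no filter, 9 with 30 CPM, 13 with 160 cells and 12 with cells chosen on thinned counts. Against macrophages, calls fell to 991 higher and 380 lower on thinned cells (8 of the 4 lists), 2-fold genes to 840 higher with a pseudocount of 20 CPM (6 of the 4 lists), and single libraries gave 619 to 1115 lower and, without Heart1, 25 of the 4 lists. The difference in median interferon genes per cell, averaged over the libraries, was 11.75, against 5.75 on thinned cells, 18 with 40 cells and 6.5 with 160 cells.

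Among named genes that were called, the difference changed sign in 6 cases (uncalled receptor and kinase genes such as Jak2, from -0.67 to 0.72, also did): Cx3cr1 was -1.12 with 40 cells and -0.26 without cells holding Thbs4 or Wif1, Cxcl1 was 0.14 with cells chosen on thinned counts, Psmb9 was -0.75 on thinned cells, and the single-library values of Pi16 ranged from -0.014 to 1.03 and of Timp1 from -2.37 to 0.13. The cause was not tested. With 14 interferon-high cells in Heart1, depth limits every low gene there.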
